A study of Mus musculus with 8 samples.

Results

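Pcp4, S100a6, S100a10, S100a11, Calm2, Calm3 and Crip1, 7 of the 19224 genes measured in stellate ganglion neurons, are described here across the 8 neuronal subtypes and across mice. They are a small set around calcium signalling, and they were picked by name after their levels in these neurons were known. Their levels and differences between subtypes are therefore given as descriptions with their spread, and no p-value is given for them. Stellate ganglia of C57BL6/J mice aged 8 to 10 weeks were dissociated and their cells were sequenced one by one, so that every mouse belongs to the same condition. Retrograde virus had been given at a pair of sites in every animal, AAV-GFP at the heart and AAV-tdTomato at the front paws, to mark the neurons that project there. Of the 8 mouse names in the neuron table, 5 were matched to a sample and hold 1002 of the 1303 neurons. The other 3, with 301 neurons, enter only as values pooled over neurons. The protocol describes 16 left and right ganglia digested together while samples are labelled by mouse, and no step that removes doublets is named.

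Calcium that enters a neuron is bound by small sensor proteins, which then change the activity of other proteins. Calmodulin is the most widely used of these sensors, and Calm2 and Calm3 both encode it. PCP4 (PEP-19) has no calcium site of its own: it carries an IQ motif that binds calmodulin and speeds the exchange of calcium on it. S100 proteins are another family of EF-hand proteins. S100A6 (calcyclin) and S100A11 respond to calcium and bind annexins, whereas S100A10 has lost calcium binding and forms a stable complex with annexin A2. CRIP1 is a cysteine-rich LIM-domain protein that binds zinc, so the name calcium-signalling proteins does not strictly cover Crip1, and Calm2, Calm3 and Pcp4 are not S100 genes.

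The members lie on 5 chromosomes (GRCm38.p6). Pcp4 is at chr16:96467606-96525793 on the plus strand and Crip1 at chr12:113152012-113153879 on the plus strand. The S100 members share chromosome 3: S100a11 (chr3:93520496-93526288) and S100a10 (chr3:93555117-93564645) are 28828 bases apart on the plus strand, and S100a6 (chr3:90612894-90614414, plus strand) is 2906081 bases from S100a11. Calm2 (chr17:87433401-87446935) and Calm3 (chr7:16915379-16924032) are on the minus strand of different chromosomes.

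Calm2 and Calm3 are shown first, because a difference in one of them bears on a protein that the other makes too. In the reference transcripts (GENCODE, GRCm38) their coding sequences are each 450 bases long and encode the same protein, yet they differ at 78 of the 450 positions and share 82.7% of their bases. The first 90 coding bases are printed with the 15 positions that differ in capitals.
Calm2: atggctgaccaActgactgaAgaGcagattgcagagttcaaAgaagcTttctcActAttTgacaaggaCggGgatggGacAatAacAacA
Calm3: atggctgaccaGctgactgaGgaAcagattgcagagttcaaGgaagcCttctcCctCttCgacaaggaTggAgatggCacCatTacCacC

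The 250 bases before the start of Pcp4, S100a6 and Crip1 are shown because these members were all higher in NA1a than in NA1b neurons, as given later. They are from RefSeq (GRCm38.p6, plus strand, 5′ to 3′), and capitals mark a motif found in them.
Pcp4 chr16:96467356-96467605: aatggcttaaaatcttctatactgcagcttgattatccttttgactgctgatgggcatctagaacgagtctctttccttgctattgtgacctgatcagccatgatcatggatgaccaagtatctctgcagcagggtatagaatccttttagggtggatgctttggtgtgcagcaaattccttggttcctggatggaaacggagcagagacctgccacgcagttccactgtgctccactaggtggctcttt
S100a6 chr3:90612644-90612893: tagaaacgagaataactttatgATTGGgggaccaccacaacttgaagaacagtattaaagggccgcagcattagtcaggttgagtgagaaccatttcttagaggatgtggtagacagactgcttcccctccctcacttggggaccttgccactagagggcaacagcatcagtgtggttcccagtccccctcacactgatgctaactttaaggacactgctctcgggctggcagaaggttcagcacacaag
Crip1 chr12:113151762-113152011: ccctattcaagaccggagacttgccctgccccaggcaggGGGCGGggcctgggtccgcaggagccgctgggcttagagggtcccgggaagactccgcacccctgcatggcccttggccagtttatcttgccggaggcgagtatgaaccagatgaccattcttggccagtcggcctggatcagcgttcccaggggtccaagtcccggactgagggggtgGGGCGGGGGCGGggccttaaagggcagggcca

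The motifs searched on both strands were the TATA box (TATAAA), the GC box (GGGCGG) and the CCAAT box, and they occur in 12.4%, 32.7% and 33.8% of 32851 such windows. Of the 5 members with an entry, the window of Pcp4 and that of Calm3 held none of them. That of S100a6 held 1 CCAAT box, and those of Crip1 and S100a11 held 3 GC boxes each, of which a pair in Crip1 abut. G and C made up 46.8% of the Pcp4 window, 50% of that of S100a6 and 67.2% of that of Crip1, against a median of 52.4% over all windows. No motif was common to the windows of Pcp4, S100a6 and Crip1.

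The data behind these values were counts of unique molecular identifiers (UMIs), given as UMIs per 10000 UMIs of a neuron and averaged over the neurons of a mouse and subtype. Neurons of the 5 mice held 916296 to 1196621 UMIs per mouse, with a median of 2722 to 4854 per neuron. The median UMIs per neuron ran from 2162 in Ach1 to 8181.5 in NA1a. With at least 10 neurons required, NA1a, NA1b, NA1c and NA2 were measured in 5 mice, NA3 in 3 (mice 2, 4 and 5), Ach2 in 2 (mice 1 and 4) and Ach1 in 1 (mouse 4). Glut held 17 neurons in all. Of the 1251 cell barcodes, 21 occurred in more than 1 mouse, and they cover 73 neurons, which are 55 of the 150 NA2 neurons, 15 of the 46 Ach2 neurons, 3 of the 17 Glut neurons and none of any other subtype. Values of NA2, Ach2 and Glut may therefore not be independent between mice and the main ones are given with and without these neurons. NA3 and Ach1 carried many transcripts of satellite glia: 12 markers of these cells, all detected in both subtypes, summed to 224 to 446 UMIs per 10000 in NA3 and 135 in Ach1, against 4.42 to 31.0 in the other subtypes with a mouse value. Markers of fibroblasts were high in them too, at 11.7 to 31.3 in NA3 and 38.7 in Ach1, against at most 3.29 in the other subtypes. Those of Schwann cells summed to 14.3 to 20.1 and 11.6, against at most 7.26. Immune markers summed to 9.65 in Ach1 and at most 4.30 elsewhere. Chat was at 0 in Ach1, whereas all 3 cholinergic markers were detected in Ach2.

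Pcp4 was mainly a transcript of NA1a neurons. Its level in NA1a was 8.33, 5.57, 9.83, 6.12 and 4.48 UMIs per 10000 in mice 1 to 5, and in NA1b it was 0.260, 0.218, 0.128, 0.317 and 0.182. Every NA1a value lay far above every NA1b value. Within each mouse the NA1a level was 32.1, 25.6, 76.8, 19.3 and 24.7 times the NA1b level in mice 1 to 5. The NA1b levels rest on 2 to 5 UMIs per mouse, and 17 of 237 NA1b neurons held a Pcp4 UMI.

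NA1c stood between them, with 2.39, 2.08, 1.95, 1.11 and 3.38 UMIs per 10000 of Pcp4 in mice 1 to 5. In all 5 mice it was below NA1a and above NA1b, without overlap of the mouse values on either side. NA2 was at 2.35, 2.65, 2.37, 1.34 and 1.52, within the range of NA1c. NA3 was at 0.921, 1.55 and 0.734 in mice 2, 4 and 5. Ordered by their means, the subtypes ran from NA1a (6.87 ± 2.17, SD, n = 5) through Ach2 (2.81 ± 2.05, n = 2), NA1c (2.18 ± 0.822, n = 5), NA2 (2.05 ± 0.576, n = 5) and NA3 (1.07 ± 0.427, n = 3) to NA1b (0.221 ± 0.0722, n = 5). Of neighbours in this order, only NA1a and Ach2 and, at the low end, NA3 and NA1b had mouse values that did not overlap. Ach2 itself was uneven, at 1.36 in mouse 1 and 4.26 in mouse 4. Without the neurons of a shared barcode it was 1.37 and 4.94, and then overlapped NA1a, whose lowest mouse was at 4.48. Ach1 was at 1.62 in its single mouse. None of the 17 Glut neurons of the 5 mice held a Pcp4 UMI, which allows a share of up to 17.6% of neurons with a UMI. That limit covers counting error only, and these neurons are shallow (a median of 2346 UMIs) and 3 of them have a shared barcode. The pooled level in 20 Glut neurons of the unmatched mice was 0.160.

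**Figure D1:**
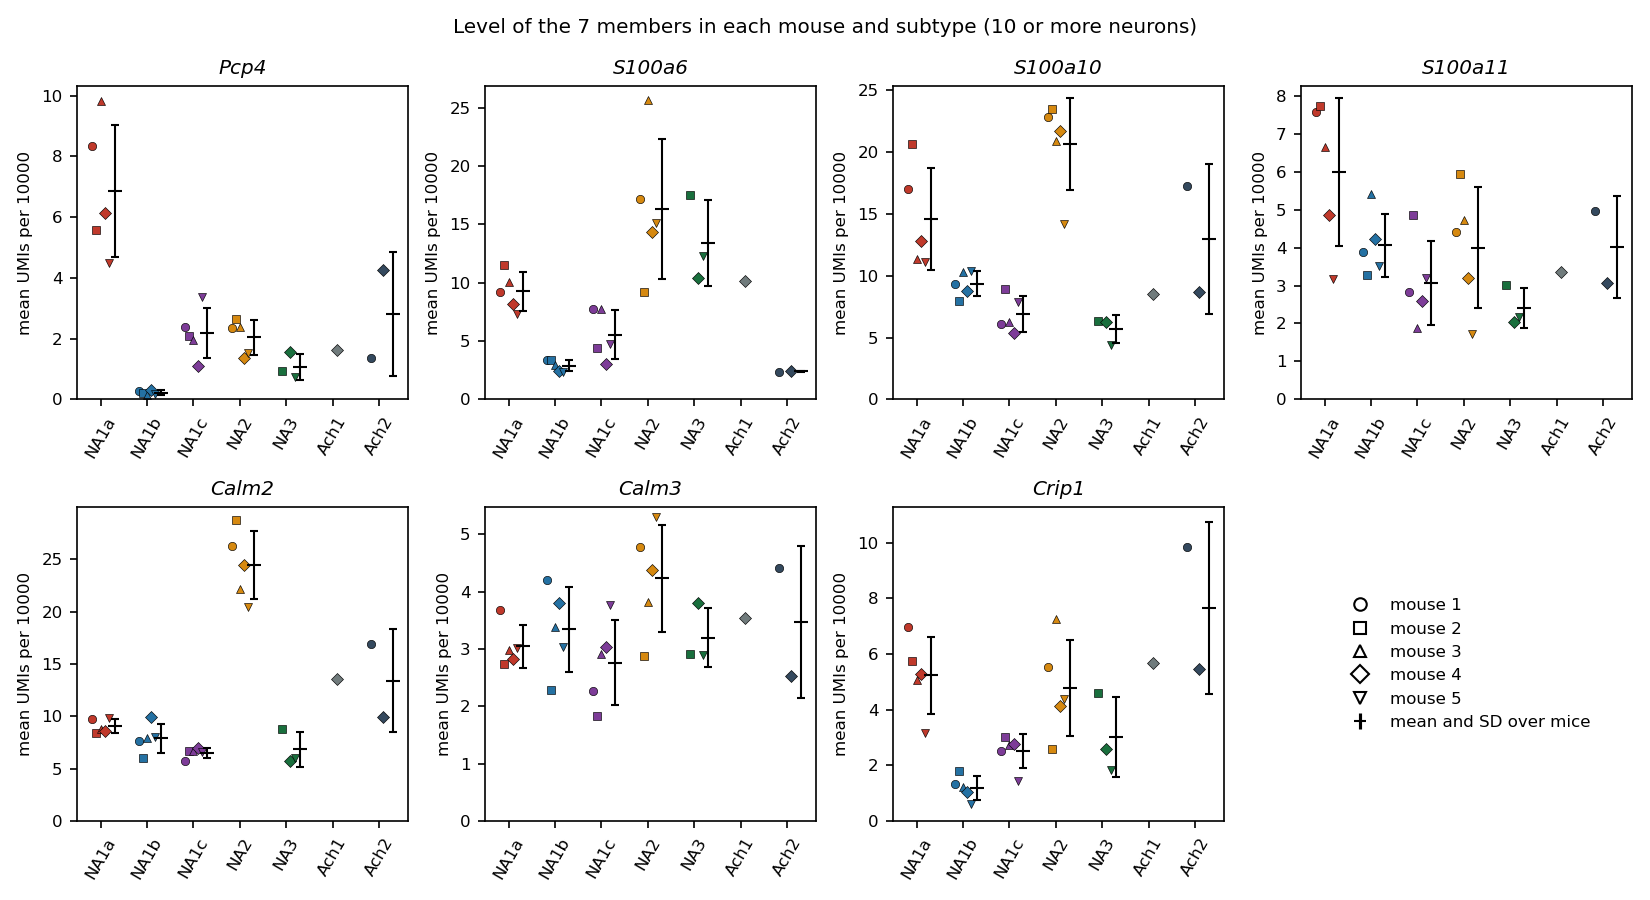
Mean UMIs per 10000 (vertical axis) of each of the 7 members in 7 subtypes (horizontal axis), with 1 symbol per mouse for subtypes with at least 10 neurons of that mouse, and the mean with its SD to the right of the points. Pcp4 was at 4.48 to 9.83 in NA1a and 0.128 to 0.317 in NA1b, and Calm2 at 20.5 to 28.8 in NA2 and 8.43 to 9.84 in NA1a.

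The share of neurons with a Pcp4 UMI gave the same order of NA1a, NA1c and NA1b at equal depth. Among NA1a neurons 77.5% ± 0.808 (SD, n = 5 mice) held at least 1 Pcp4 UMI, against 39.2% ± 8.86 of NA1c, 31.2% ± 11.1 of NA2, 39.8% ± 22.1 of NA3 (n = 3) and 7.82% ± 2.59 of NA1b. Deep neurons show more genes, so neurons were also thinned to 2000 UMIs, which left out shallower neurons and kept from 58.1% of Ach1 to 96.7% of NA1a. The share then was 52.6% ± 8.93 in NA1a, 33.0% ± 3.63 in NA1c, 26.3% ± 12.0 in NA2 (n = 4 mice), 19.0% ± 3.34 in NA3 (n = 3) and 4.36% ± 3.66 in NA1b. In Ach2 it went from 48.6% to 33.3% (n = 2). NA1a was highest before and after thinning, and which part of the shift came from leaving out shallow neurons was not tested. No cell type known to lack Pcp4 is in the neuron table, so the share that free RNA alone would give was not measured.

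**Figure D2:**
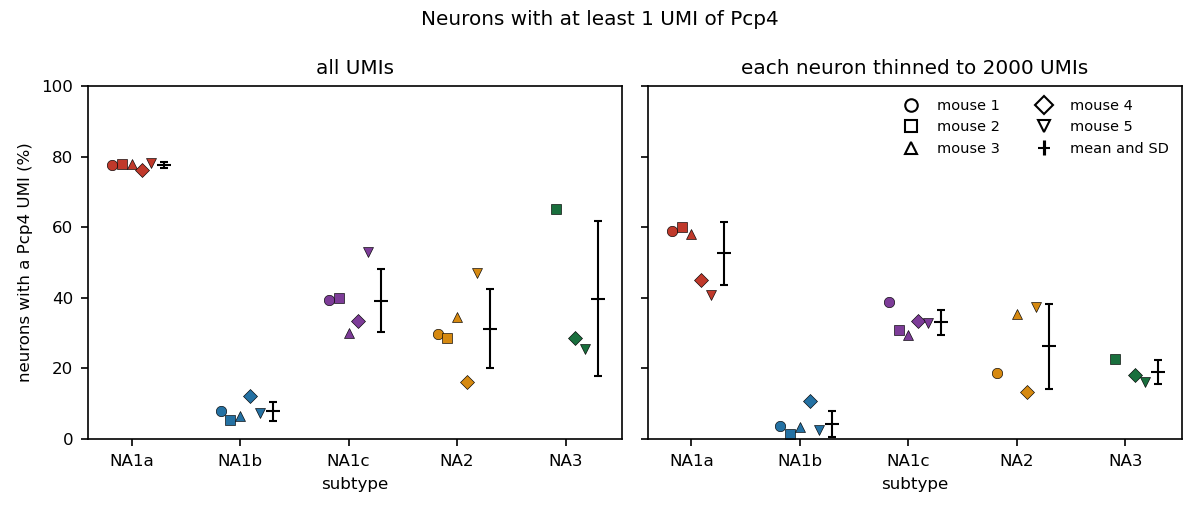
Percent of neurons with at least 1 Pcp4 UMI (vertical axis) in 5 subtypes (horizontal axis), from all UMIs on the left and after thinning each neuron to 2000 UMIs on the right. Symbols are mice and bars the mean and SD; NA1a falls from 77.5% to 52.6% on thinning and NA1b from 7.82% to 4.36%.

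In the pooled neurons of the unmatched mice Pcp4 was again highest in NA1a among the NA1 subtypes and NA2, and lowest in NA1b. Their pooled NA1a level was 3.76 UMIs per 10000 over 134 neurons, below the lowest of the 5 mice. The unmatched mice may also be of another batch than the 5, and an effect of batch was not tested. Their NA1b level was 0.135 over 74 neurons, NA1c was at 1.43 and NA2 at 1.61, the reverse of their order in the 5 mice. Neurons with a reporter transcript were few: 2 of 6 neurons with GFP held a Pcp4 UMI (33.3%, exact 95% interval 4.33 to 77.7) and 6 of 20 with tdTomato (30%, 11.9 to 54.3). These intervals cover counting error only, and they overlap. Of the 20 tdTomato neurons 11 were NA1b, and 1 of those 11 held Pcp4.

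Calm2 behaved differently and was highest in NA2. Its level there was 26.2, 28.8, 22.2, 24.5 and 20.5 UMIs per 10000 in mice 1 to 5. In NA1a it was 9.73, 8.43, 8.76, 8.59 and 9.84. Every NA2 value was above every value of NA1a, NA1b, NA1c and NA3, and those 4 subtypes lay close together, at 9.07 ± 0.664 in NA1a, 7.88 ± 1.41 in NA1b, 6.84 ± 1.70 in NA3 and 6.50 ± 0.482 in NA1c. Among them neighbouring subtypes overlapped. Ach1, which has no shared barcode, lay between NA2 and these 4 subtypes, at 13.5 in its single mouse.

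The NA2 level of Calm2 depended in part on the neurons with a shared barcode. These neurons held 34.0 UMIs per 10000 of Calm2 when pooled, and the other NA2 neurons 18.2. Without them Calm2 in NA2 was 17.7, 16.2, 21.1 and 17.6 in mice 1, 3, 4 and 5, or 18.1 ± 2.10 against 24.4 ± 3.27 with them. It was still above every NA1a value. In Ach2 the gap was wider: 15 neurons with a shared barcode held 31.3 of Calm2 and the other Ach2 neurons 7.03, so that the mean of both mice went from 13.4 to 7.77 without them. In the 5 mice the place of Ach2 above NA1a in the order of Calm2 thus rested on those neurons. In the unmatched mice, which hold no shared barcode, Calm2 pooled to 25.7 in 25 NA2 neurons, 15.1 in 16 Ach2 neurons and 7.49 in NA1a, so that Ach2 was above NA1a there.

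Calm3 differed least between subtypes. Its mean was 4.23 ± 0.929 in NA2 (n = 5), 3.47 ± 1.33 in Ach2 (n = 2), 3.34 ± 0.738 in NA1b, 3.20 ± 0.516 in NA3 (n = 3), 3.05 ± 0.375 in NA1a and 2.76 ± 0.743 in NA1c. All neighbours in this order overlapped. The single mouse of Ach1 was at 3.55. By mouse the NA2 level was 4.78, 2.88, 3.82, 4.38 and 5.30 and the NA1a level 3.69, 2.73, 2.98, 2.82 and 3.01. NA2 was above NA1a within each of the 5 mice although the ranges overlapped. Without the neurons of a shared barcode Calm3 in NA2 was 6.41, 3.27, 5.10 and 5.13 in mice 1, 3, 4 and 5, or 4.98 ± 1.29. The Glut neurons, pooled over 17 neurons, held 13.2 of Calm2 and 4.12 of Calm3, and 12.8 and 4.11 without the 3 neurons of a shared barcode.

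**Figure D3:**
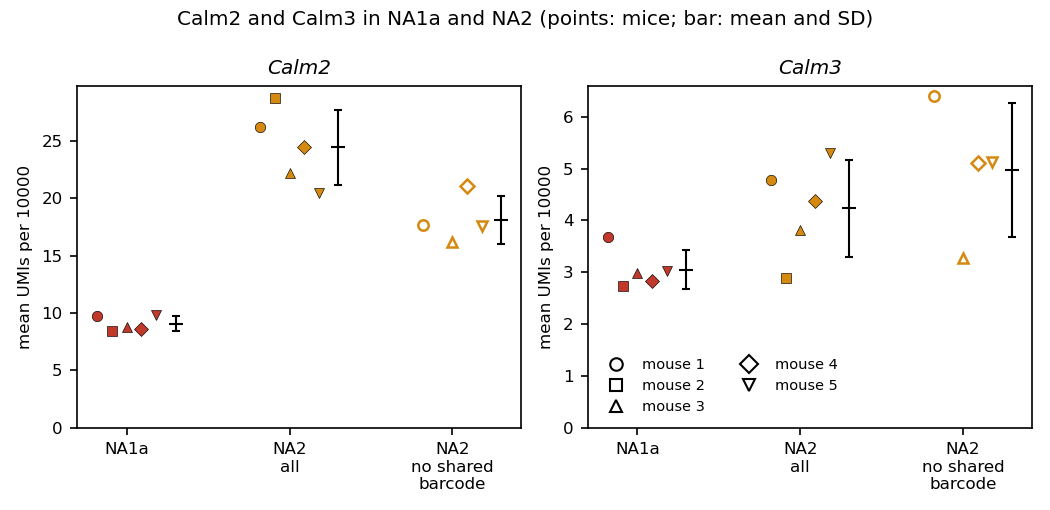
Mean UMIs per 10000 (vertical axis) of Calm2 and Calm3 in NA1a, in all NA2 neurons and in NA2 neurons whose barcode occurs in 1 mouse, with symbols for mice and bars for the mean and SD. Without shared barcodes the NA2 mean goes from 24.4 to 18.1 for Calm2, where every mouse stays above NA1a, and from 4.23 to 4.98 for Calm3.

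Among the S100 genes, S100a6 was highest in NA2 and NA3 and lowest in NA1b and Ach2, of subtypes with at least 2 mice. In NA2 its level was 17.2, 9.17, 25.7, 14.3 and 15.1 UMIs per 10000 in mice 1 to 5, and in NA3 it was 17.5, 10.4 and 12.3 in mice 2, 4 and 5. In NA1a it was 9.24, 11.5, 10.0, 8.15 and 7.28. Mouse 2 was low in NA2 and high in NA1a and NA3. In NA1b the level was 3.37, 3.35, 2.98, 2.39 and 2.36, and every NA1a value was above every one of these. NA1c, at 7.71, 4.38, 7.78, 3.06 and 4.77, overlapped both. Ach2 was at 2.34 and 2.43 in its 2 mice. Ach1 was at 10.1 in its single mouse. The 17 Glut neurons pooled to 10.2 (11.9 without those of a shared barcode), and 20 Glut neurons of the unmatched mice to 3.88.

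In mice 2, 4 and 5 the summed satellite glia markers of NA3 were 446, 224 and 286 UMIs per 10000 and S100a6 was 17.5, 10.4 and 12.3. S100a11 (3.01, 2.03 and 2.16) and Calm2 (8.79, 5.72 and 5.99) had the same order of mice, although both had lower means in NA3 than in NA1a. Pcp4 (0.921, 1.55 and 0.734), S100a10 (6.35, 6.28 and 4.40), Calm3 (2.92, 3.80 and 2.89) and Crip1 (4.60, 2.59 and 1.83) did not. Mouse 3, with only 7 NA3 neurons, had the highest glial sum of 522 and S100a6 at 14.7, below mouse 2. Its S100a11 (1.71) and Calm2 (5.24) were the lowest of all mice in NA3, so their order did not hold with this mouse. In mouse 1, with 9 NA3 neurons, the glial sum was 336 and S100a6 was 11.3, below mouse 5. The neuronal markers of NA3 summed to 44.2 to 54.4, against 94.6 to 132 in NA1a, NA1b, NA1c and NA2. The part of RNA of satellite glia, Schwann cells or fibroblasts in the S100a6 level of NA3 was not tested. In NA2 the summed glial markers were 6.69 to 14.3, which is within the range of NA1b and NA1c.

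S100a10 was also highest in NA2. Its level there was 22.9, 23.5, 20.9, 21.7 and 14.2 UMIs per 10000, and in NA1a it was 17.1, 20.7, 11.3, 12.8 and 11.1. NA2 was above NA1a in each of the 5 mice, but mouse 5 in NA2 lay below mice 1 and 2 in NA1a. Without the neurons of a shared barcode mouse 1 was at 16.5 in NA2, below its NA1a value. The means then went down through Ach2 (12.96 ± 6.06, n = 2), NA1b (9.36 ± 1.03), NA1c (6.92 ± 1.47) and NA3 (5.68 ± 1.10, n = 3), with overlap between all neighbours. In Ach1 the level was 8.49 in its single mouse, and the Glut neurons pooled to 6.43. Every NA1a value was above every NA1b and NA1c value. The neurons with a shared barcode held 26.1 of S100a10 in NA2, and without them the NA2 mean was 17.3 ± 3.64 in 4 mice in place of 20.6 ± 3.73 in 5. In Ach2 they held 22.3, and the mean was 9.72 without them.

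S100a11, whose gene is the close neighbour of S100a10, varied less. In NA1a it was 7.57, 7.75, 6.65, 4.88 and 3.16 UMIs per 10000 in mice 1 to 5. Mouse 5 was lowest and lay below all 5 NA1b values of 3.89, 3.27, 5.40, 4.24 and 3.52. The means were 6.00 ± 1.95 in NA1a, 4.07 ± 0.833 in NA1b, 4.02 ± 1.35 in Ach2, 4.00 ± 1.60 in NA2, 3.07 ± 1.12 in NA1c and 2.40 ± 0.531 in NA3, and all neighbours overlapped. The single mouse of Ach1 was at 3.37, and the Glut neurons pooled to 1.19. S100a11 was the S100 member for which NA2 did not stand above NA1a in any of the 5 mice.

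**Figure D4:**
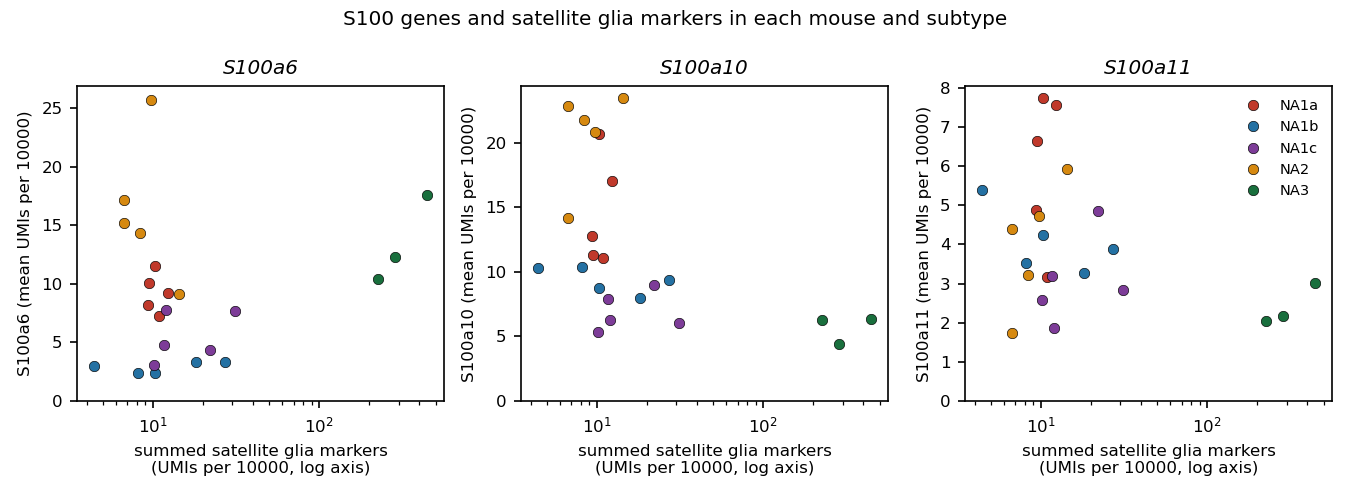
Mean UMIs per 10000 of S100a6, S100a10 and S100a11 (vertical axes) against the sum of 12 satellite glia markers in UMIs per 10000 (horizontal axis, logarithmic), with 1 point per mouse and subtype. NA3 lies apart at sums of 224 to 446, where S100a6 is 10.4 to 17.5 and S100a10 4.40 to 6.35.

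Crip1 followed Pcp4 within the NA1 subtypes but not outside them. It was at 6.98, 5.74, 5.04, 5.26 and 3.14 UMIs per 10000 in NA1a and at 1.31, 1.78, 1.22, 1.02 and 0.590 in NA1b. The ranges did not overlap. NA1c was at 2.52, 3.03, 2.74, 2.75 and 1.44, between them in every mouse. Ach1 held 5.67 in its single mouse, and the Glut neurons pooled to 0.471. Ach2 held the highest mean, 7.65 ± 3.10 (n = 2), from 9.84 in mouse 1 and 5.45 in mouse 4. Without the neurons of a shared barcode these mice were at 10.3 and 4.01 (7.14 ± 4.42), and mouse 4 was then below its NA1a value. The Ach2 neurons without a shared barcode pooled to 5.84. NA2 was at 4.78 ± 1.73 (n = 5), and here the shared barcodes worked the other way, since those NA2 neurons held 2.45 of Crip1 and the others 6.93. Without them the NA2 mean was 7.07 ± 2.54 in 4 mice.

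The fit across all genes put these differences on one scale. The subtypes were themselves made by clustering these same neurons on their expression. A call or an adjusted p between subtypes, for any gene, is therefore a ranking and not an independent test. It was made on log2 of the mean level plus 0.1 for 23 profiles of a mouse and subtype and 6185 genes, and all 7 members passed its filter of 0.5 UMIs per 10000 in at least 3 profiles. All 7 had to be high enough in some subtype to pass. In NA1a against NA1b the log2 difference was 4.42 ± 0.27 (SE) for Pcp4, 2.08 ± 0.23 for Crip1 and 1.64 ± 0.20 for S100a6. S100a10 (0.60 ± 0.18), S100a11 (0.50 ± 0.23), Calm2 (0.22 ± 0.17) and Calm3 (-0.11 ± 0.20) followed. The fit called 3 of the 7 higher in NA1a (Pcp4, Crip1 and S100a6), where it called 4.14% of all genes in either direction and 2.67% higher in NA1a. Since the members were chosen with these differences known, nothing is read from that count. The same holds for every call of a member, and every loss of one, in the other comparisons and lists below. With a pseudocount of 1 the Pcp4 difference was 2.65, and from averaged natural log values 2.03. It was 4.22 without the deepest 10% of neurons, 4.16 without mouse 3 and 4.04 in the pooled neurons of the unmatched mice.

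In NA1a against NA1c all 7 differences were above 0: 1.63 for Pcp4, 1.05 for S100a10, 1.04 for Crip1, 0.94 for S100a11, 0.80 for S100a6, 0.47 for Calm2 and 0.17 for Calm3. The SE ran from 0.17 to 0.27. The fit called 5 of them higher in NA1a, against 5.68% of all genes in either direction and 3.93% higher in NA1a. The calls of S100a6, S100a11 and Crip1 depended on single mice: S100a11 was lost without mouse 1, 3 or 4, Crip1 without mouse 1 and S100a6 without mouse 4. S100a6 and S100a11 were also lost without the filter, S100a6 with summed UMIs and S100a11 with thinned neurons. With 1 mouse left out the lowest differences were 0.65, 0.73 and 0.94 for S100a6, S100a11 and Crip1.

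In NA1c against NA1b, Pcp4 was again apart at 2.78 ± 0.27, followed by Crip1 at 1.05 ± 0.23 and S100a6 at 0.85 ± 0.20. The other 4 were lower in NA1c, from -0.26 for Calm2 to -0.45 for S100a10. The fit called Pcp4, Crip1 and S100a6, against 1.54% of all genes in either direction and 1.07% higher in NA1c. S100a6 was not called without mouse 1, 3 or 5 or without the mouse as a block, and Crip1 not without mouse 4. S100a6 was also lost without the filter and without the deepest 10% of neurons, and both were lost from averaged natural log values. Their differences without 1 mouse were 0.72 to 0.97 for S100a6 and 0.97 to 1.13 for Crip1.

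Against NA2 the members went both ways, the S100 genes among them. In NA1a minus NA2 the log2 difference was 1.69 ± 0.27 for Pcp4 and 0.61 ± 0.23 for S100a11, and -1.41 ± 0.17 for Calm2, -0.75 ± 0.20 for S100a6 and -0.52 ± 0.18 for S100a10. Calm3 was at -0.44 ± 0.20 and Crip1 at 0.16 ± 0.23. In NA1c minus NA2, Pcp4 was at 0.05 ± 0.27, while Calm2 (-1.89), S100a10 (-1.57), S100a6 (-1.55), Crip1 (-0.87), Calm3 (-0.61) and S100a11 (-0.33) were all below 0. In NA1a minus NA2 the fit called 2 members higher (Pcp4 and S100a11) and 3 lower (Calm2, S100a6 and S100a10), where it called 48.6% of all genes, 32.0% higher and 16.6% lower. In NA1c minus NA2 it called 5 members lower, where it called 59.9% of all genes, 36.5% higher and 23.4% lower. The median gene was 0.23 higher in NA1a and 0.29 higher in NA1c than in NA2. After each profile was centred on its own median gene, Calm2 was at -1.68 and -2.21.

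Without shared barcodes the differences to NA2 kept their sign except that of Crip1. Calm2 then was at -0.99 in NA1a minus NA2 and at -1.46 in NA1c minus NA2, S100a6 at -0.89 and -1.69, S100a10 at -0.32 and -1.36, and Pcp4 at 1.80 and 0.17. Crip1 in NA1a minus NA2 went from 0.16 to -0.51, and S100a10 was no longer called in that comparison whereas Calm3 was. The fit then called 39.3% and 52.1% of all genes. The calls of S100a10 and S100a11 in NA1a minus NA2 also depended on single mice, S100a10 on mice 3 and 4 and S100a11 on mice 1, 4 and 5, with differences of -0.60 to -0.43 and 0.55 to 0.67 when 1 mouse was left out. The S100a11 call was also lost without the block, after centring, without the filter, with at least 20 neurons and with thinned neurons. The S100a10 call was also lost without the filter, with summed UMIs and from averaged natural log values.

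In NA3 minus NA1a, measured in 3 mice for NA3, Pcp4 was at -2.48 ± 0.32, S100a10 at -1.32 ± 0.22 and S100a11 at -1.16 ± 0.28. S100a6 was the only member called higher, at 0.72 ± 0.24, and it was higher in each of the 3 mice. Crip1 (-0.67), Calm2 (-0.44) and Calm3 (0.12) were not called. The fit called 1 member higher and 3 lower, against 19.1% of all genes, 7.29% higher and 11.8% lower, and the median gene was at -0.25. The S100a6 call was lost without mouse 1, 2, 3 or 5, and also without the block, without the filter, with only the subtypes compared, with at least 5 neurons, with thinned neurons, with summed UMIs and without the deepest 10% of neurons, and its difference was 0.66 to 0.87 with 1 mouse left out. These 6 comparisons share profiles with one another and are not independent.

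**Figure D5:**
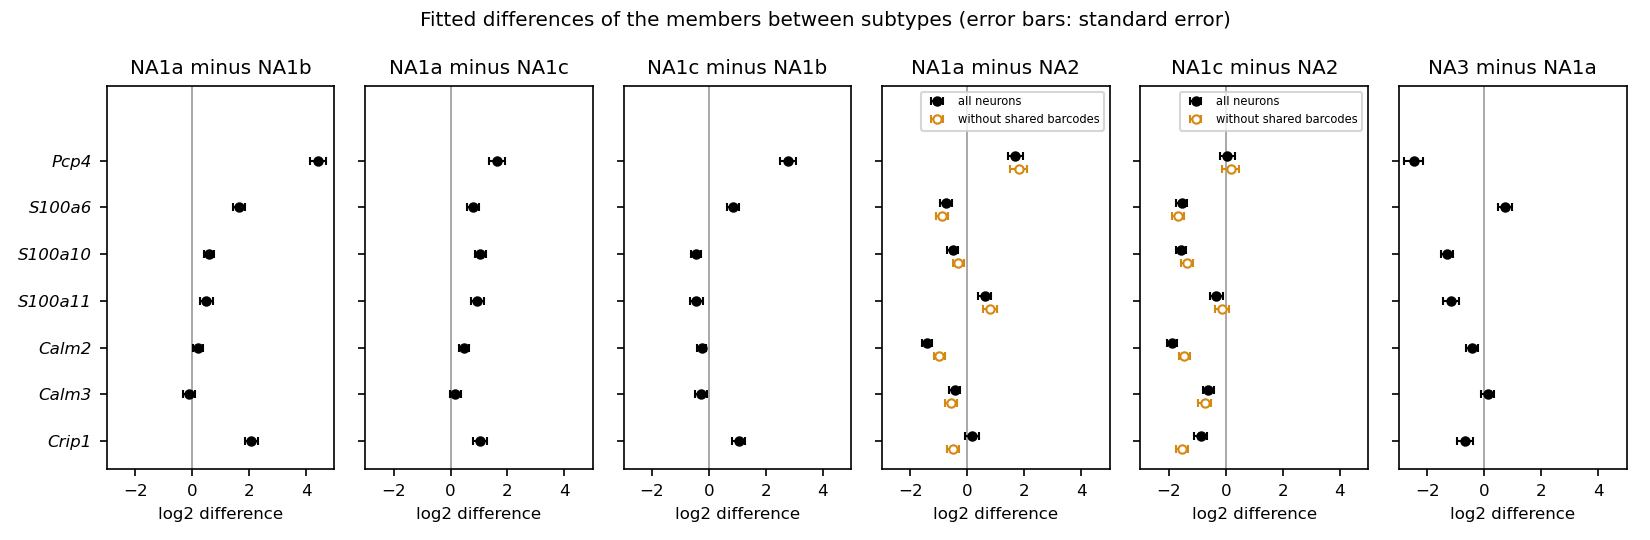
Fitted log2 differences of the 7 members (horizontal axis) in 6 comparisons of subtypes, with the SE as error bars; open symbols are the fit without neurons of a shared barcode, shown where NA2 is compared. Pcp4 lies at 4.42, 1.63 and 2.78 in the 3 comparisons within NA1, and Calm2 at -1.41 and -1.89 in those with NA2.

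The families around the members were read from 9 lists with 95 genes, of which 52 passed the filter. In NA1a against NA1b 6 of the 52 were called, 3 of them members, beside 4.14% of all genes. Of 7 tested S100 genes only S100a6 was called, and none of Calm2, Calm3, the 9 calmodulin-dependent kinases and their inhibitors, 7 calcineurin genes or 3 calcium pumps was. Outside the members, Ncald, an EF-hand sensor of the neuronal calcium sensor family, was higher in NA1a (5.35 ± 0.564 against 2.45 ± 0.502 UMIs per 10000, log2 difference 1.11, limma adjusted p = 0.000102, higher in 5 of 5 mice). Anxa6, a calcium-dependent membrane-binding annexin, was lower (1.57 ± 0.393 against 3.31 ± 1.47, log2 difference -0.97, limma adjusted p = 0.015, 5 of 5 mice). Kcnip4, a calcium-binding subunit of A-type potassium channels, was lower too (log2 difference -0.85, limma adjusted p = 0.0499, 5 of 5 mice). This call was lost in the fit without the neurons of a shared barcode, although NA1a and NA1b hold no such neurons. The Kcnip4 difference was the same in that fit. Its SE, which rests on a spread shared with the other subtypes, was 0.28 in place of 0.26.

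In NA1c against NA1b 4 of the 52 were called, beside 1.54% of all genes, and Ncald was the one that is not a member, at 4.82 ± 1.07 against 2.45 ± 0.502 (log2 difference 0.95, limma adjusted p = 0.00137). In NA1a against NA1c, where 5.68% of all genes were called, Anxa6 (log2 difference -1.16, limma adjusted p = 0.00304) and Ahnak, a giant scaffold that binds the complex of S100A10 and annexin A2 (-1.07, adjusted p = 0.0268), were lower in NA1a. S100a10 went the other way in that comparison, at 14.6 ± 4.15 in NA1a against 6.92 ± 1.47 in NA1c.

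Against NA2, Calm2 lay on the opposite side from several kinase and pump genes. In NA1a minus NA2, Calm2 was called lower, and of 9 calmodulin-dependent kinases and their inhibitors 6 were called higher and 0 lower, with a median of 1.16, where 32.0% of all genes were called higher. The largest were Camk2a (2.00, limma adjusted p = 2.48e-05), Camk2d (1.66, adjusted p = 5.32e-08) and Eef2k (1.49, adjusted p = 0.000937), each in 5 of 5 mice. All 3 tested plasma membrane calcium pumps, which calmodulin activates, were called higher as well (median 1.14), among them Atp2b1 at 6.96 ± 1.27 against 3.16 ± 1.01 UMIs per 10000. In NA1c minus NA2 Calm2 and Calm3 were called lower, and the counts were 7 kinases higher with Camk2n2, an inhibitor of CaM kinase II, lower, and 3 of 3 pumps higher. There 36.5% of all genes were called higher and 23.4% lower. The next list held subunits and regulators of calcineurin, the phosphatase that calmodulin activates, and it did not follow. In each comparison 1 of its 7 genes was called higher (Cabin1, a regulator and not a subunit), with medians of 0.05 and -0.17. Without the neurons of a shared barcode Camk4 and Atp2b2 were no longer called in either comparison, nor Camkk2 in NA1a minus NA2. Levels are relative to each neuron's total, and NA2 neurons were shallower than NA1a neurons, with a median of 2341.5 UMIs against 8181.5.

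On the S100 list, which holds 3 of the chosen members, 4 of 7 tested genes were called lower and 1 higher in NA1a minus NA2, beside 16.6% and 32.0% of all genes. S100a1 (0.285 ± 0.174 against 1.01 ± 0.401 UMIs per 10000, log2 difference -1.62, limma adjusted p = 0.000348), S100a13, S100a6 and S100a10 were lower and S100a11 higher, with a list median of -0.61 where that of all genes was 0.23. S100a10 and S100a13 were no longer called without the neurons of a shared barcode. In NA1c minus NA2, 5 of the 7 were called lower and 0 higher, beside 23.4% and 36.5% of all genes, with a median of -1.18 where that of all genes was 0.29. Anxa5 and Anxa2, annexins that bind membranes in the presence of calcium, were called lower in NA1a than in NA2 (Anxa2 not without the neurons of a shared barcode), Anxa5 with a log2 difference of -1.35 (limma adjusted p = 5.3e-06). Crip2, a relative of Crip1 on the LIM list, was at 5.05 ± 1.02 in NA1a and 10.8 ± 1.21 in NA2 (-1.09, limma adjusted p = 6.27e-06), whereas Crip1 itself was not called there.

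In NA3 minus NA1a the S100 list had 3 of 7 genes called higher and 2 lower, 3 of these 5 being members, beside 7.29% and 11.8% of all genes. The largest was S100b, a classical gene of glia, at 4.16 ± 1.44 UMIs per 10000 in NA3 and 0.0812 ± 0.0558 in NA1a (log2 difference 4.55, limma adjusted p = 5.64e-10, 3 of 3 mice). S100a1 (1.69, adjusted p = 0.00431, limma) and Ahnak (2.37, adjusted p = 2.46e-06, limma) were higher too. Gap43, the growth cone protein that like PCP4 binds calmodulin through an IQ motif, was lower together with Pcp4 (6.05 ± 0.336 against 13.4 ± 3.83, log2 difference -1.01, limma adjusted p = 0.00032). The summed markers of satellite glia, Schwann cells and fibroblasts given above apply to each of these genes. The part of such RNA in them was not tested.

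The genes whose pattern over the 23 profiles was most like that of Pcp4 were Npy, which encodes neuropeptide Y (Pearson's r = 0.949), Gal, which encodes galanin (0.914), Bub3, a mitotic checkpoint protein (0.873), Zdhhc22, a palmitoyltransferase (0.838), and Pcdh10, a protocadherin (0.833). These are correlations of log2 levels centred on each mouse, over profiles that share mice and libraries, and they describe the order of subtypes. All 5 were also the closest genes to Pcp4 without centring, which does not hold for every gene below. For Crip1 the closest were Fst, which encodes follistatin (0.899), Bub3 (0.895) and Npy (0.854), so that Crip1 and Pcp4 had a pair of neighbours in common. S100a6 was closest to the ribosomal protein genes Rpl8 (0.903) and Rpl7 (0.869) and the interferon-inducible gene Ifi27 (0.890). S100a10 was closest to Sncg, which encodes gamma-synuclein (0.973), Snrpn (0.958) and Bex2 (0.948), and S100a11 to Ndufa12 (0.863), Tmsb10 (0.851) and Fxyd7 (0.810). Calm2 was closest to Slc25a4, the mitochondrial ADP/ATP carrier (0.965), and the glycolytic enzyme gene Gapdh (0.961), and Calm3 to Micu3, a regulator of mitochondrial calcium uptake (0.838), Mdp1 (0.812) and Higd2a (0.802). Without centring on the mouse, r fell to 0.449 for Mdp1 and 0.553 for Higd2a with Calm3, at ranks 525 and 151, and to 0.669 for Fst with Crip1, at rank 49.

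Among the members themselves the closest pairs were S100a6 with Crip1 (r = 0.836), S100a10 with Calm2 (0.832) and Pcp4 with Crip1 (0.786). Pcp4 and S100a6 were at 0.552 and the neighbouring genes S100a10 and S100a11 at 0.587. Pcp4 and Calm3 were at -0.0839 and S100a6 and S100a11 at -0.121. Pcp4 was thus led by NA1a, Calm2 and S100a10 were led by NA2, and S100a6 and Crip1 were above their NA1b and NA1c means in both.

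Within NA1a and within NA1c, single neurons with more Pcp4 also tended to have more Npy. The correlation of natural log values over the NA1a neurons of a mouse averaged 0.481 and ran from 0.300 to 0.651 over the 5 mice, and in NA1c it averaged 0.392 (0.233 to 0.522). In NA1b, where Pcp4 was nearly absent, it averaged 0.0573 and was above 0 in 4 of 5 mice. S100a10 and S100a11 correlated within NA1a at 0.448 on average, but from 0.0450 to 0.656 between mice, and at 0.290 in NA1b and 0.151 in NA1c. Neurons of a mouse share a library and differ in depth, and with depth removed the averages were 0.454 for Pcp4 and Npy in NA1a and 0.375 for S100a10 and S100a11 in NA1a.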

How the data were processed

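The authors aligned 10x reads with Cell Ranger 2.1.1 and filtered cells with Seurat. They clustered the neurons on their expression and named the 8 resulting subtypes (Scanpy and mm10 are also in the submitters' processing notes). Each deposited value, made by the authors, is a natural log, taken of UMIs per 10000 UMIs of the neuron plus 1, and not a count. Dividing by the smallest step of each neuron gave whole UMIs for 100% of values above 0 within 0.01. Neurons were kept as deposited, with the deposited subtype and mouse name. Of the mouse names, 3 matched no single sample and entered only pooled values. The 5 matched mice are those of batch 2, and the 3 samples left without a match are all of batch 1. The pooled unmatched mice may thus differ from the matched mice by batch as well as by animal. Batch and animal cannot be told apart there, and an effect of batch was not tested.

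Levels are means of UMIs per 10000 over the neurons of a mouse and subtype with at least 10 neurons. The fit used limma 3.58.1 in R 4.3.3 on log2(level + 0.1), with subtype and mouse as terms, an intensity trend and Benjamini-Hochberg adjustment over the 6185 genes with a level of at least 0.5 in at least 3 profiles; genes with an adjusted p under 0.05 were called, and all tests are two-sided. A fold on this scale understates the change of low genes. The mouse is a block because profiles of a mouse come from 1 animal: residuals of same-mouse profiles had a consensus correlation of 0.0460, and 15 of 42 pairs of profiles were above 0.1. The fit was tested on simulated data with known changes. Other steps ran in Python 3.11.15 (NumPy 2.4.6, pandas 2.3.3, SciPy 1.17.1) and figures in matplotlib 3.10.9. Intervals for shares are exact Clopper-Pearson intervals, and a count of 0 was given the limit of 3 counts.

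The members, the 9 lists and the alternatives were chosen with earlier results of these data known. Named in the text are the members, in each list the called genes of largest difference with the same direction in every mouse, any gene counted in a group of 5 or fewer, and the 5 genes closest to Pcp4 and 3 closest to each other member. A gene chosen by this rule is not reported here. Promoter windows matched 5 of the 7 members, all but S100a10 and Calm2. The alternatives are given at the end, and leaving out neurons with a shared barcode was chosen after seeing the data.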

Additional observations from a re-analysis of the deposited data

Results flagged for a closer look

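Of 28 groups of 5 mice (7 members in 4 subtypes), 1 had a mouse that lay apart from the rest. S100a10 in NA2 was 14.2 UMIs per 10000 in mouse 5, against 20.9 to 23.5 in the other 4 mice, and the gap to the nearest was 0.720 of the whole range, where 0.710 is the limit for 5 samples. Chance alone marks about 1 group in 20. Without the neurons of a shared barcode the level was 12.5 in mouse 5, 16.5 in mouse 1, 19.9 in mouse 3 and 20.3 in mouse 4. The cause was not tested.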

How the results depend on the processing

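Of 714 recomputed differences of the members, 664 moved by less than the spread between mice, 49 moved by more, and 1 that had been called changed its sign: S100a11 in NA1a minus NA2 was -0.22 in the pooled unmatched mice. Most settings reuse the neurons of the matched mice. The pooled unmatched mice are the only setting with other animals. There 21 of 42 differences moved by less than the spread, 20 by more, and 1 that had been called changed its sign. A change of sign was counted only for called differences. Signs of differences not called also changed there, for Calm3 in NA1a minus NA1b, NA1a minus NA1c, NA1c minus NA1b and NA3 minus NA1a. The same held for S100a10 in NA1c minus NA1b, Crip1 in NA1a minus NA2 and Pcp4 in NA1c minus NA2. The Pcp4 difference of 4.42 between NA1a and NA1b was 2.65 with a pseudocount of 1 and 2.03 from averaged natural log values, which both shrink low levels, and 4.16 to 4.54 when 1 mouse was left out. Without the mouse as a block (no replicate block) none of the 42 member differences moved by more than the spread, and 180, 270, 78, 2907, 3630 and 1072 genes were called in NA1a minus NA1b, NA1a minus NA1c, NA1c minus NA1b, NA1a minus NA2, NA1c minus NA2 and NA3 minus NA1a, against 256, 351, 95, 3005, 3706 and 1182 with it. Leaving out 1 mouse gave 102 to 207, 129 to 251, 61 to 136, 2604 to 2760, 3350 to 3621 and 830 to 1035 in that order.

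The number of genes called moved by over 1.5 times in these cases. In NA1a minus NA1b it was 421 with a pseudocount of 1, 161 without a filter, 595 with only the subtypes compared, 444 with at least 20 neurons, 83 with thinned neurons and 566 from averaged natural log values. In NA1a minus NA1c it was 167 without a filter, 712 with only the subtypes compared, 559 with at least 20 neurons, 99 thinned and 984 from averaged natural log values. In NA1c minus NA1b it was 148, 173, 162 and 59 for a pseudocount of 1, only the subtypes compared, 20 neurons and thinning, and 159 with summed UMIs. It was 1718 thinned in NA1a minus NA2, 2253 with only the subtypes compared in NA1c minus NA2, and 713 without the deepest 10% of neurons in NA3 minus NA1a. The cause was not tested. The number of mice limits NA3, Ach1, Ach2 and Glut, and low levels such as Pcp4 in NA1b rest on single UMIs.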
